A study of Mus musculus with 65 samples.

Results

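The sites described here are the transcribed regulatory elements of MEL cells that lost PRO-seq signal within 1 h of the histone deacetylase inhibitor LBH589. They were chosen on the measured values themselves. In the LBH589 series, the mean signal of each site in the 3 libraries treated for 1 h and in the 3 DMSO libraries was raised by 1, and a site was kept where the log2 ratio of 1 h to DMSO was -0.8 or less and the DMSO mean was at least 20 normalised reads. This gave 852 of 29632 sites. Of the 18163 sites with a DMSO mean of at least 20, called the measurable sites below, 4.69% met the rule, and 766 others had risen by the same margin. Because the ratio of 1 h to DMSO made the choice, it is given as a description and without a test.

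PRO-seq maps RNA polymerases engaged in transcription by the nascent RNA they are making, and dREG is a program that finds sites of divergent transcription initiation, which mark active promoters and enhancers, in such maps. MEL is a mouse erythroleukaemia cell line blocked at an early red-cell stage. All 65 libraries, controls included, came from cells that carry Mtg16-FKBP-2XHA, a fusion of the corepressor Mtg16 to a tag through which it can be degraded. The libraries form 23 groups in 4 experiments, and they were quantified in separately normalised site tables, so levels are compared only within a table.

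In the LBH589 series, cells received DMSO or 5 nM LBH589 for 30 min or 1 h, with 3 libraries in each group. The A485 series holds 28 libraries of cells given DMSO, 250 nM of the degrader dTAGV1, 10 µM A485, or dTAGV1 and A485 together for 15 min, 30 min or 1 h. Each of its groups has 3 libraries, except that at 30 min A485 with and without the degrader has 2. The time course holds 22 libraries of cells given DMSO, dTAGV1 for 15 min, 30 min, 1 h or 2 h, or dTAGV1 for 2 h followed by a washout of 30 min, 1 h or 2 h. Its groups have 3 libraries, except dTAGV1 for 2 h and the washout of 1 h with 2 each. The LBH589 washout series has 3 libraries at 30 min and 3 at 1 h of washout, from cells that had dTAGV1 for 2 h before it. The labels do not say when LBH589 was given to those cells, and the series has no untreated control. The labels also do not say whether libraries of a group came from separate cultures, so p-values measure the spread between these libraries, which may be technical.

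Histone acetylation at promoters and enhancers is written by acetyltransferases such as p300 and CBP, which A485 inhibits, and erased by deacetylases, which LBH589 (panobinostat) inhibits. Acetylated histones are read by bromodomain proteins that help RNA polymerase to initiate and elongate. Mtg16, encoded by Cbfa2t3, is a member of the ETO family that brings corepressors with deacetylases to DNA-binding complexes of the red-cell and megakaryocyte lineages. The other experiments therefore show how the same sites behave when acetyltransferase activity, rather than deacetylase activity, is blocked. They also show the sites when a degrader of a deacetylase-binding corepressor is given and washed out. The values used here do not measure Mtg16 protein, so its loss and return are not shown. No group had a washout without degrader, so the washout step and the removal of the degrader cannot be told apart.

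The LBH589 libraries held between 2769517 and 4633612 reads in sites. Those of the A485 series held between 857558 and 7625202, those of the time course between 1969884 and 6959404 and those of the LBH589 washout between 1493605 and 3505967. The shallowest library of the A485 series is replicate 1 of A485 at 1 h. Genes of the red-cell lineage were transcribed in the DMSO cells of the LBH589 series, with mean gene signals of 2839 for Gata1, 4513 for Tal1, 3214 for Epor and 1079 for Klf1, but Hbb-bt, a beta-globin gene, had only 34.3. Myeloid Mpo was at 37.5, whereas the pan-leukocyte gene Ptprc was at 1732 and the megakaryocyte gene Itga2b at 4603. Of the time-course libraries, 3 did not resemble their groups, with mean correlations of their deviations to those of their group of -0.25 (degrader 30 min, replicate 3), -0.23 (washout 30 min, replicate 3) and -0.21 (degrader 15 min, replicate 2). A further 5 time-course libraries, those of the degrader at 1 h and 2 h, have titles that name A485 and library names that name the degrader. They were grouped by library name.

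The lost sites fell in both intervals measured, by more in the first 30 min than in the next, and most of them kept signal. The median signal of the 852 sites was 91.9, 88.1 and 98.6 normalised reads in the DMSO libraries, 58.8, 57.5 and 59.9 at 30 min, and 43.6, 45.5 and 43.7 at 1 h. All 3 libraries at 30 min lay below all 3 DMSO libraries, and all 3 at 1 h lay below those at 30 min. The DMSO and 1 h libraries chose the sites, so these separations are descriptions and not tests. The share of all site signal that fell in these sites went from 7.98%, 7.59% and 8.29% in DMSO to 5.72%, 5.62% and 5.88% at 30 min and 4.42%, 4.70% and 4.60% at 1 h. The 1 h ratio had a median of -0.96 on the log2 scale, with 10% of sites at -1.37 or less and the most negative at -3.11. Lost is thus the name of a rule: the typical site was reduced rather than silent at 1 h.

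**Figure D1:**
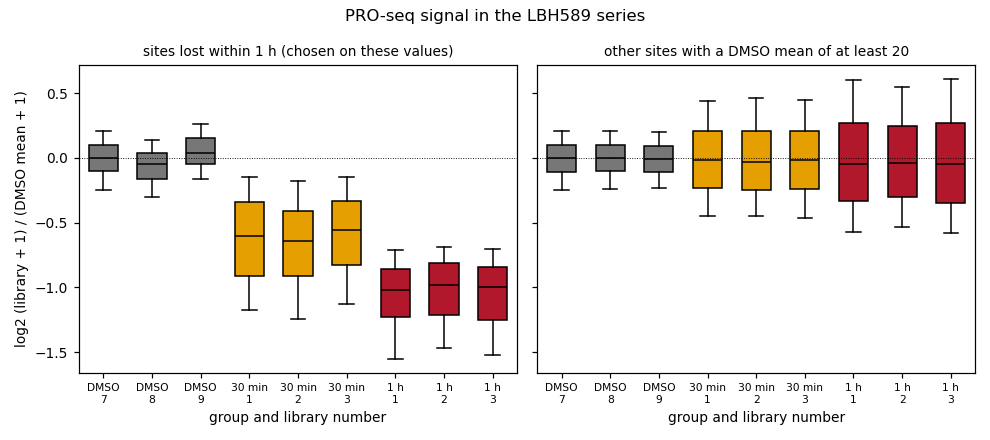
PRO-seq signal of each library of the LBH589 series relative to the DMSO mean (log2 of value + 1), for the 852 lost sites (left) and the other measurable sites (right). Boxes span the quartiles with the median as a line, and whiskers reach the 10th and 90th percentiles over sites. The lost sites' medians lie at -0.56 to -0.64 in the 30 min libraries and at -0.98 to -1.02 in the 1 h libraries, values that chose the sites at 1 h, while the other sites stay centred near 0.

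Most of the fall was already present at 30 min, a time the rule did not read, although the comparison uses the same DMSO libraries and is therefore no independent check. At 30 min, 838 of the 852 sites lay below their DMSO mean, against 55.4% of the measurable sites. A ratio of -0.8 or less was reached at 30 min by 245 of the lost sites, or 28.8%, against 2.06% of the measurable sites. At 651 lost sites, or 76.4%, every 30 min library was below every DMSO library, against 19.7% of the measurable sites. The 30 min ratio ranged from -2.31 to 0.37 with a median of -0.58. At 462 lost sites, or 54.2%, every 1 h library was below every 30 min library, against 20.1% of the measurable sites. The 1 h mean was above the 30 min mean at 53, or 6.22%, against 45.7%. Both counts read the 1 h libraries that chose the sites, and nothing is drawn from them.

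How many sites meet the rule depends on the scaling. The deposited values are divided by size factors, and the summed signal of all sites then fell from a mean of 3853827 in DMSO to 3648493 at 30 min and 3364314 at 1 h. With reads scaled by each library's total over sites instead, 375 sites met the rule and 1466 met its opposite, since the median ratio of the measurable sites went from -0.07 to 0.12. The median 1 h ratio of the 852 sites on that scale was -0.77. Whether the total itself changed is outside what these values show.

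At the most negative site, chr10:21120071-21120470 (mm39, the build named in the submitters' processing notes), the DMSO libraries held 39.0, 19.3 and 39.4 normalised reads, the 30 min libraries 4.76, 3.83 and 11.6, and the 1 h libraries 3.35, 1.82 and 3.50. Every treated library lay below every control, and the 1 h mean was 8.63-fold lower after 1 read was added to each mean, as in the rule. A near neighbour, chr10:21120791-21121520, held 41.8, 51.2 and 46.9 reads in DMSO, 8.73, 8.63 and 8.40 at 30 min, and 4.19, 9.10 and 14.9 at 1 h. That site was at its low level by 30 min, and its 1 h libraries spread around it. The 200 bp site chr15:37071961-37072160 fell in steps, from 125.3, 88.7 and 84.2 in DMSO to 32.6, 33.5 and 36.8 at 30 min and 20.1, 19.1 and 15.7 at 1 h. Its 3 groups did not overlap. Of the 12 sites with the most negative ratio, the last, chr11:98750051-98750400, behaved differently at 30 min, with 21.4, 7.67 and 17.9 reads against 15.3, 27.3 and 25.6 in DMSO, so that the groups overlapped before 4.19, 8.19 and 3.50 at 1 h.

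**Figure D2:**
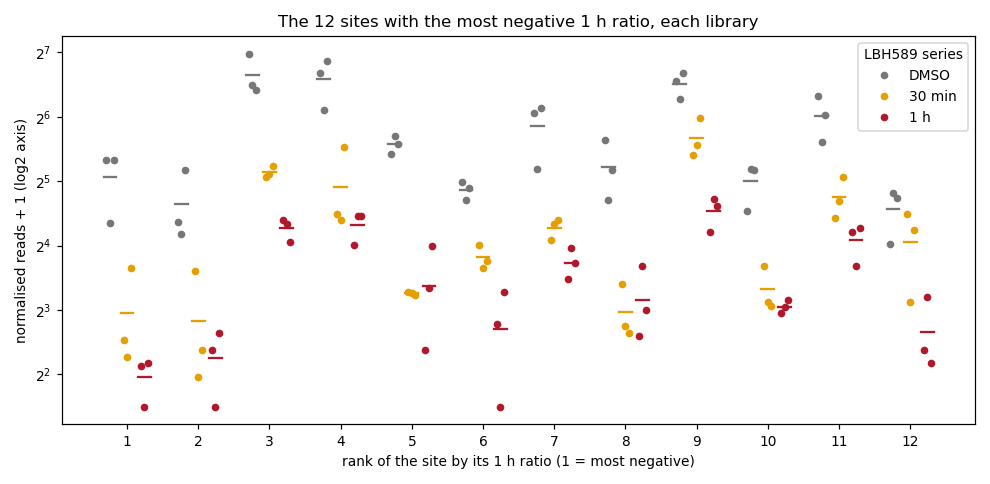
Normalised reads + 1 (log2 axis) in each library of the LBH589 series at the 12 sites with the most negative 1 h ratio, ordered by that ratio. Points are libraries and bars are group means. At the first site the mean goes from 32.6 reads in DMSO to 6.72 at 30 min and 2.89 at 1 h, and at the twelfth the 30 min libraries overlap those of DMSO.

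The 8 sites with the highest DMSO signal had 1 h ratios from -1.19 to -0.82, and they differed in when they fell. At chr14:115285561-115287620, the brightest of the 852, the DMSO libraries held 25529, 24423 and 26214 reads, the 30 min libraries 20068, 19491 and 20828, and the 1 h libraries 11834, 13208 and 12536. Its 30 min ratio was -0.33 and its 1 h ratio -1.02, with no overlap between groups. At chr9:78387611-78388910 the values were 6557, 7248 and 7103 in DMSO, 6857, 5883 and 6277 at 30 min, and 4040, 3958 and 3816 at 1 h. There the 30 min libraries overlapped DMSO and only those at 1 h were apart. The pattern was the reverse at chr15:74803831-74805340, where 7112, 5766 and 7255 reads in DMSO became 2840, 3038 and 3235 at 30 min and 2861, 2956 and 3029 at 1 h. All of that site's fall was complete at 30 min.

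The rule cuts through a continuous range of values. Just inside the ratio limit were chr7:27384441-27385120 (33.6 reads in DMSO and 18.8 at 1 h) and chr7:41247781-41248490 (43.1 and 24.3), and just outside it were chr19:7997521-7998060 (472.3 and 270.9) and chr6:118736051-118736720 (129.1 and 73.7), all 4 with a ratio that rounds to -0.80. Just inside the limit on DMSO signal were chr12:77047051-77047530 at 20.3 and chr7:12857511-12858060 at 20.4 reads, and just outside it was chr4:78430661-78430960 at 19.9, with a ratio of -1.43. With a limit of -1, 371 sites would remain.

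The lost sites were somewhat narrower than the measurable sites, with a median width of 610 bp against 740 bp, and their DMSO signal had medians of 91.2 and 78.2 reads. The lost sites had a higher upper quartile, 264.7 reads against 187.4. Sites of 300 bp or less made up 10.2% of the lost and 5.32% of the measurable sites, and sites of 1500 bp or more made up 8.69% and 10.5%. By chromosome, the lost share ran from 2.75% of the measurable sites on chromosomes 1 and 19 to 7.12% on chromosome 15 and 6.39% on chromosome 8. Chromosome Y had only 16 measurable sites, 8 of them lost.

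A good part of the lost sites lay in clusters. Joining lost sites whose centres lie at most 12.5 kb apart put 316 of the 852, or 37.1%, into 116 runs of at least 2, while 536 stood alone. There were 23 runs of at least 4. Joined at the same distance, 65.0% of the measurable sites have another measurable site in their run. That share joins 18163 sites, so it cannot be compared with the 37.1%, which joins only the 852. Whether lost sites cluster more or less than other sites was not tested.

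The longest run covered 28090 bp at chr7:24069321-24097410 and held 9 lost sites among its 11 sites, with 1 h ratios from -1.42 to -0.91. The summed signal of the 9 sites was 4933 ± 25.1 reads in DMSO, 3355 ± 163.2 after 30 min and 2283 ± 138.8 after 1 h (SD, n = 3 each). The second run, chr8:123008961-123050930, covered 41970 bp, and all 8 of its sites were lost, with ratios from -1.67 to -1.23. Its sum was 5387 ± 159.0 in DMSO, 2155 ± 100.4 after 30 min and 1863 ± 62.1 after 1 h (SD, n = 3 each). Nearly all of the chromosome 8 fall thus came in the first 30 min, whereas the chromosome 7 run fell in both intervals. The third run, chr7:135174821-135198350, had 8 lost sites of 10.

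Blocking the acetyltransferases p300 and CBP also lowered most of these sites. In the A485 series, 755 of the 852 passed the filter for testing (a mean of at least 10 reads over the table). The other 97 had a median DMSO signal of 8.91. Those 97 had fallen more under LBH589, with a median 1 h ratio of -1.18 against -0.96 for the 852, and the shares below leave them out. In a fit across all 21312 such sites with limma on log2(value + 1) and Benjamini-Hochberg adjustment, A485 lowered 264 of the 755 lost sites at 15 min, 356 at 30 min and 438 at 1 h at an adjusted p below 0.05. Those are 35.0%, 47.2% and 58.0%, against 16.0%, 18.3% and 24.0% of all sites tested. A485 raised 87 of them (11.5%) at 15 min, 64 (8.48%) at 30 min and 73 (9.67%) at 1 h, against 11.0%, 14.5% and 18.9% of all sites. The median log2 difference of the lost sites went from -0.22 at 15 min to -0.66 at 30 min and -0.97 at 1 h, and that of all sites stayed between -0.02 and 0.02. Without the shallow A485 1 h library, 57.0% were called lower at 1 h, and edgeR on the recovered reads called 55.4% lower. Leaving out either 30 min library took the share called higher at 30 min to 5.43%.

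At chr19:21354581-21355410, which had the largest fall under A485, the DMSO libraries held 56.7, 70.0 and 84.3 reads, those at 15 min 19.1, 12.9 and 13.6, those at 30 min 6.79 and 11.0, and those at 1 h 0, 1.41 and 0. The groups did not overlap between DMSO and any A485 time, and the log2 difference at 1 h was -5.72 ± 0.33 (SE, limma adjusted p = 1.53e-16). With values this near 0, the size depends on the 1 read added before the log. The next was chr8:123030141-123030570, a site of the chromosome 8 run, with 154.6, 147.9 and 189.2 reads in DMSO, 42.8, 37.7 and 21.3 at 15 min, 8.15 and 6.31 at 30 min, and 0, 8.44 and 5.19 at 1 h. Every A485 library lay below every control, and the log2 difference at 1 h was -5.40 ± 0.41. At chr13:6938291-6939230, 60.4, 74.5 and 87.3 reads in DMSO became 0, 1.41 and 5.19 at 1 h.

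The largest rises under A485 were at weak sites. At chr7:121788961-121789300 the DMSO libraries held 7.32, 10.0 and 14.7 reads, and A485 brought 31.8, 49.8 and 49.3 at 15 min and 44.5, 87.2 and 69.2 at 1 h. All A485 libraries were above all controls, and the 1 h log2 difference was 2.54 ± 0.27 (SE, limma adjusted p = 1.03e-09). In the LBH589 series the same site went the other way, from 25.1, 34.1 and 22.4 in DMSO to 10.1, 10.0 and 9.61 at 1 h. The site chr8:120906121-120906400 (log2 difference 2.48) and chr12:91390121-91390860 (2.04) were the next highest under A485 at 1 h.

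**Figure D3:**
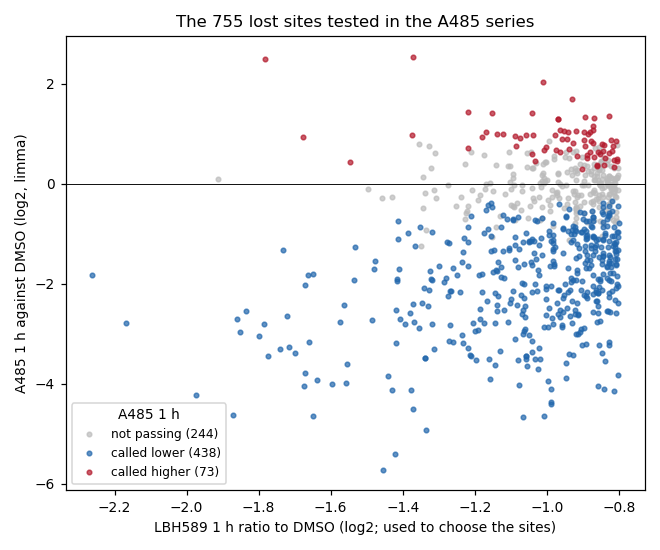
Log2 difference of A485 1 h to DMSO (limma, vertical axis) against the LBH589 1 h ratio that chose the sites (horizontal axis), for the 755 lost sites tested. Blue points are the 438 sites called lower, red the 73 called higher and grey the 244 that did not pass. Large falls under A485 are found along the whole range of the LBH589 ratio.

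The sites called under A485 were unevenly spread over the fast and slow, weak and strong sites. Of the 245 sites at -0.8 or less after 30 min of LBH589, A485 lowered 152 of the 193 tested at 1 h (78.8%), and of the 607 slower sites 286 of 562 (50.9%). The 438 sites lowered by A485 had a median DMSO signal of 171.5 reads in the LBH589 series, against 53.9 for the 244 that did not pass. By width, A485 lowered 42.1% of lost sites of 300 bp or less, 58.1% of those between, and 69.9% of those of 1500 bp or more. Signal and width move with the number of reads and so with what a test can call, and their part in these shares was not tested. Across the 755 sites, the LBH589 1 h ratio and the A485 1 h difference had r = 0.31 and rho = 0.26, and across 17792 measurable sites r = 0.22 and rho = 0.15. These are descriptions over sites, which share libraries and are not replicates.

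The brightest lost sites were split in their response to A485. At chr14:115285561-115287620 the DMSO libraries held 10942, 10035 and 10135 reads and the A485 1 h libraries 12369, 9600 and 9805. The groups overlapped, and the difference was 0.02 ± 0.10 (SE, limma adjusted p = 0.88). At chr15:74803831-74805340, in contrast, 2855, 2845 and 3120 reads became 427.7, 576.9 and 556.9, a difference of -2.51 ± 0.12. The second brightest site, chr9:78382071-78384760, rose under A485 by 0.63 ± 0.11 at 1 h, with 4914, 4660 and 4800 reads in DMSO and 9180, 6835 and 6540 at 1 h.

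In the runs, A485 lowered all 9 lost sites of chr7:24069321-24097410, all 8 of chr8:123008961-123050930 and all 8 of chr7:135174821-135198350 at 1 h. The sum over the chromosome 8 run was 2342 ± 191.9 reads in DMSO, 1059 ± 24.5 at 15 min, 338.5 at 30 min (n = 2) and 232.0 ± 21.2 at 1 h (SD, n = 3 otherwise). Under LBH589 the sum of the same run was also lower at 1 h (1863 ± 62.1) than at 30 min (2155 ± 100.4). LBH589 has no 15 min group, so the timing within the first 30 min cannot be compared between LBH589 and A485. Over the first chromosome 7 run the sum was 2611 ± 89.3 in DMSO and 516.4 ± 44.9 at 1 h of A485. A run of 5 lost sites on chromosome Y, chrY:90729131-90740750, had 0 of 5 lowered by A485 at 1 h and 1 raised (limma), the 5 differences lying between -0.48 and 0.62. At an unadjusted p below 0.05 limma also gave 0 lowered, as did edgeR and DESeq2. In a run of 4 on chromosome 15, chr15:62079111-62093290, 1 of 4 was lowered, and the differences lay between -0.64 and 0.60.

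**Figure D4:**
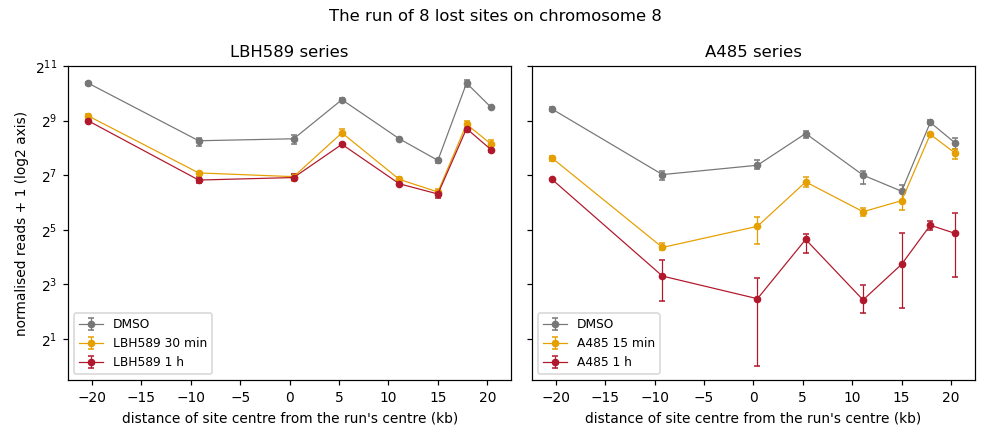
Mean normalised reads + 1 (log2 axis) at the 8 lost sites of chr8:123008961-123050930 against distance from the run's centre, in the LBH589 series (left) and the A485 series (right). Points are means of 3 libraries and bars reach the lowest and the highest library. At all 8 sites the 1 h means under A485 lie far below DMSO. Under LBH589 the 30 min and 1 h means lie close together. A485 at 30 min is not drawn, so the figure does not compare timing between LBH589 and A485.

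The degrader of Mtg16 changed fewer of these sites in the A485 series. After 15 min of degrader 12 of 755 were lower and 42 higher (1.59% and 5.56%, against 1.23% and 4.21% of all sites), and after 30 min 30 were lower and 54 higher (3.97% and 7.15%, against 3.05% and 7.37%). At 1 h, 126 were lower and 70 higher, or 16.7% and 9.27%, against 10.4% and 16.2% of all sites. The lost sites' median log2 difference was 0.07, 0.05 and -0.09 at the 3 times. The 15 min and 30 min shares lay near those of all sites. With edgeR's TMM scaling, 8.61% were lower and 10.2% higher at 30 min. At 15 min the count of calls moved by over 1.5 times without either of replicates 4 and 5 of DMSO or of the degrader, and at 30 min without either of those DMSO replicates. The lowest shares called in either direction were then 3.84% at 15 min and 6.09% at 30 min.

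Single sites nevertheless responded strongly. At chr8:123416251-123416910 the DMSO libraries held 88.7, 78.9 and 72.5 reads, and the degrader libraries 198.5, 167.2 and 190.8 at 15 min, 278.4, 352.1 and 293.0 at 30 min and 391.6, 346.3 and 399.0 at 1 h. Every degrader library lay above every control, the 30 min and 1 h libraries overlapped, and the 1 h difference was 2.23 ± 0.27 (SE, limma adjusted p = 9.75e-08). Its neighbours chr8:123412491-123413500 and chr8:123393411-123394430 rose by 2.01 ± 0.17 and 1.95 ± 0.32. A485 alone lowered all 3 of these sites at 1 h, with log2 differences of -3.44, -3.10 and -3.99.

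Other sites fell with the degrader. At chr3:96143661-96144190, 2843, 2706 and 2456 reads in DMSO became 1330, 1583 and 1216 at 15 min, 983.9, 821.4 and 909.9 at 30 min and 690.4, 631.6 and 481.4 at 1 h, a difference of -2.16 ± 0.15 at 1 h. The groups did not overlap between DMSO and any degrader time. The sites chr13:22012951-22015520 and chr1:21413821-21415010 fell by 2.35 and by 2.19 on the log2 scale at 1 h.

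With both agents for 1 h, more of the lost sites differed from the degrader alone than from A485 alone. Against the degrader alone, both agents lowered 371 sites (49.1%) and raised 87 (11.5%), against 23.8% and 15.7% of all sites. Against A485 alone, both agents lowered 15 (1.99%) and raised 111 (14.7%), against 2.02% and 3.98% of all sites, with a median of 0.15. The interaction, which is the effect of the degrader under A485 minus its effect without A485, was called higher at 123 sites (16.3%) and lower at 16 (2.12%), against 6.53% and 9.73% of all sites. Its median was 0.35 over the lost sites, and it rests in part on the shallow A485 1 h library. Tested on the recovered reads with edgeR, 9.80% of the lost sites were called in either direction between both agents and A485 alone, in place of 16.7%. The first chromosome 7 run differed from the lost sites as a whole. Its sums were 516.4 ± 44.9 under A485, 1377 ± 73.1 under both and 3424 ± 127.4 under the degrader at 1 h (SD, n = 3 each). Of its 9 sites 8 were higher under both agents than under A485 alone, with a median of 1.53, and 8 were lower than under the degrader alone.

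**Figure D5:**
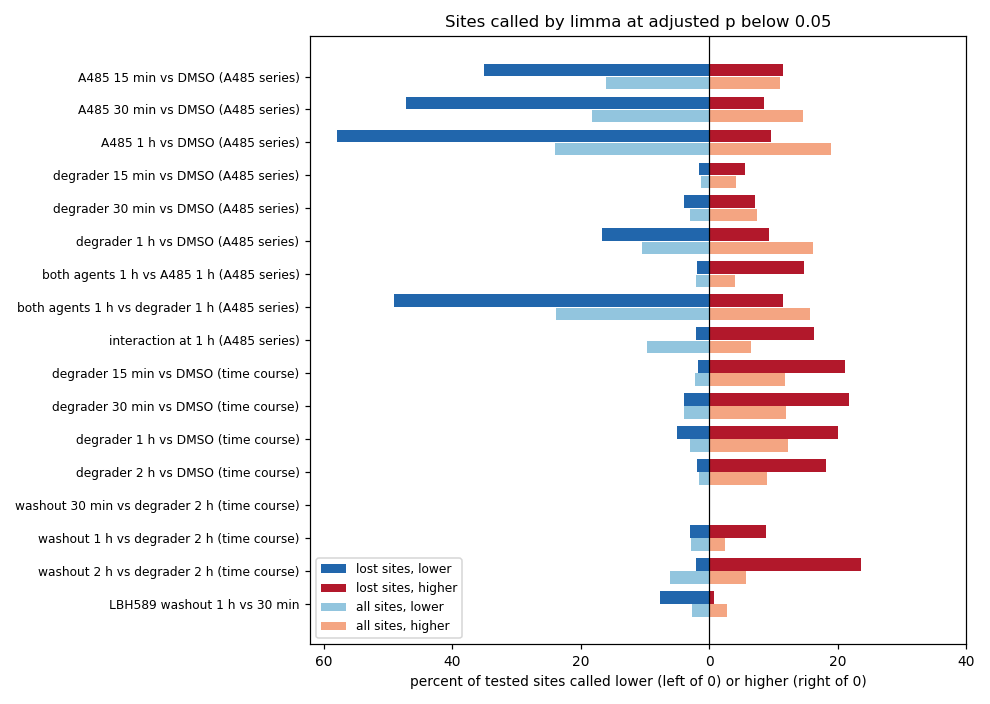
Share of tested sites called lower (bars left of 0) or higher (bars right of 0) by limma at an adjusted p below 0.05 in each comparison, for the lost sites (dark) and for all sites tested (light). Under A485 for 1 h 58.0% of the lost sites were lower against 24.0% of all sites, and 2 h after washout of the degrader 23.6% were higher against 5.64%.

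In the time course, whose libraries are separate from those of the A485 series, the degrader raised between 18.1% and 21.7% of the lost sites at each time. The table holds 829 of the 852, and 823 passed the filter. At 15 min 174 were higher and 15 lower (21.1% and 1.82%, against 11.7% and 2.16% of all sites), and at 30 min 179 and 32 (21.7% and 3.89%, against 12% and 4.0%). At 1 h 165 were higher and 42 lower (20% and 5.10%, against 12.3% and 3.07%). The share called higher at 1 h thus lay above that of all sites here, but below it in the A485 series (9.27% against 16.2%). The reason for this difference between the series was not tested. At 2 h 149 were higher and 16 lower (18.1% and 1.94%, against 8.92% and 1.58%). Without the 3 libraries that stood apart, 30.3% were called at 2 h, and without replicate 2 of the degrader at 2 h 11.9% were, in place of 20%.

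The largest rise among those sites at 2 h was that of chr8:123416251-123416910 again, from 237.3, 222.9 and 176.0 reads in DMSO to 1673 and 1567, a difference of 2.94 ± 0.23 (SE, limma adjusted p = 2.67e-09). All degrader libraries of the time course were above all its DMSO libraries at this site. At chr8:117810341-117811210, one of the 12 sites lost most under LBH589, DMSO held 1.87, 4.57 and 4.47 reads and the degrader 27.6, 33.7 and 24.3 at 15 min and 38 and 28.5 at 2 h. The rise was 2.72 ± 0.46 at 15 min and 2.93 ± 0.51 at 2 h. All DMSO libraries of this site lay below the mean that the filter asks for. The site was tested only because other groups were higher. With DMSO values this low, the size of the rise depends on the read added before the log. In the LBH589 series, normalised separately, the DMSO libraries of this site held 65.4, 35.3 and 69.3 reads. At chr8:121095961-121098470, 213.0, 117.9 and 149.1 reads became 1059 and 1237, a rise of 2.87 ± 0.29.

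Few of the lost sites fell with the degrader in the time course. At chr1:21413821-21415010, 140.1, 134.3 and 265.4 reads in DMSO became 51.1 and 36.2 at 2 h, a difference of -1.97 ± 0.27 (SE, limma adjusted p = 1.13e-05). At the LBH589 site chr15:37071961-37072160, 29.9, 23.8 and 32.8 reads became 5.89 and 6.90, a difference of -2.0 ± 0.61 whose call was lost when any 1 library of either group was left out. At chr4:32564401-32565370, 26.2, 21 and 26.8 reads became 9.82 and 2.59, and the fall of 2.03 on the log2 scale was not called without replicate 2 of the degrader, where it was -1.24. Under A485 for 1 h this last site was higher, by 1.04 ± 0.29.

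The sites that the degrader raised in the time course were almost all sites that A485 lowered in the other series. Of the lost sites tested in both, 136 were raised at 2 h of degrader and 438 lowered at 1 h of A485, and 128 were in both lists. That is 94.1% of the first list and 29.2% of the second. Among all measurable sites tested in both, 1020 were in both lists, or 69% and 21.2%. Of the 73 lost sites that A485 raised, 71 were tested in the time course and 0 were raised at 2 h of degrader with limma. At an unadjusted p below 0.05 limma gave 3, and after adjustment edgeR gave 1 and DESeq2 0. Of the 244 that did not pass under A485, 8 of 242 (3.31%) were raised.

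After the degrader was washed out, more of the lost sites rose above their level at 2 h of degrader. All 3 washout comparisons use the same 2 libraries of the degrader at 2 h. At 30 min of washout, limma called 0 of 823 lower and 0 higher, against 0.0% and 0.00429% of all sites, with 140 lost sites at an unadjusted p below 0.05. edgeR also called 0, and DESeq2 called 0.38%. Without replicate 3 of the 30 min washout, 1 of the libraries that stood apart, 10.1% of the lost sites were called. At 1 h of washout 72 were higher and 25 lower (8.75% and 3.04%, against 2.45% and 2.9% of all sites). At 2 h 194 were higher and 17 lower (23.6% and 2.07%, against 5.64% and 6.13% of all sites). The medians were 0.05, 0.27 and 0.37. Relative to DMSO rather than to 2 h of degrader, the median lost site stood at 0.23, 0.46 and 0.61 at the 3 washout times, with measurable sites at -0.03, -0.02 and 0.01.

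The washout counts depend on single libraries. At 1 h they fell to between 0.608% and 1.70% called in either direction when any 1 of the 4 libraries compared was left out, in place of 11.8%. At 2 h they were 10.1% to 20.4% in place of 25.6%, with changes over 1.5 times without either of the 2 degrader libraries or replicate 3 of the 2 h washout. Without the 3 libraries that stood apart, 34.1% were called at 1 h and 43.3% at 2 h.

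At chr15:74803831-74805340 the time-course values were 1866, 1962 and 2872 reads in DMSO, 1970 and 2649 at 2 h of degrader, and 6851, 7135 and 7317 after 2 h of washout. DMSO and degrader overlapped, the washout libraries were above both, and the difference to the degrader was 1.64 ± 0.21 (SE, limma adjusted p = 5.13e-05). At chr10:21120791-21121520, 5.60, 2.74 and 4.47 reads in DMSO became 14.4 and 7.77 at 2 h of degrader and 66.7, 73.4 and 75 after 2 h of washout, a further rise of 2.64 ± 0.37. The site chr1:21413821-21415010, which had fallen with the degrader, returned to 258.4, 268.7 and 215.8 reads, a rise of 2.49 ± 0.27. The second of these sites rose in both steps, and at the third the washout libraries overlapped those of DMSO. At chr10:21120791-21121520 all DMSO libraries lay below the mean that the filter asks for. That site was tested only because other groups were higher. The DMSO means of these sites in the LBH589 series were higher, at 6711 (chr15 site), 46.6 (chr10 site) and 759.3 reads (chr1 site). At the brightest lost site, chr14:115285561-115287620, the DMSO mean of that series was 25388, against 23152, 23051 and 21931 in the time course. The tables are normalised separately, and the reason for these differences was not tested.

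Many of the sites raised after washout were sites that A485 lowered in the other series. The lists of lost sites raised at 2 h of washout and lowered at 1 h of A485 shared 142, or 82.1% of the first and 32.4% of the second, against 47.1% and 11.1% among measurable sites. Of the 245 sites that LBH589 lowered by the same margin at 30 min, 107 of 224 (47.8%) were raised after 2 h of washout, and of the slower sites 87 of 599 (14.5%). The same split gave 62 of 224 (27.7%) and 87 of 599 (14.5%) for a rise at 2 h of degrader. Over 823 lost sites, the LBH589 ratio and the washout difference at 2 h had r = -0.33 and rho = -0.24, as a description.

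In the LBH589 washout series more of the lost sites were lower than higher at 1 h of washout against 30 min. There, 611 of the 852 passed the filter, 47 were lower and 4 higher (7.69% and 0.655%, against 2.7% and 2.83% of all sites), and the median difference was -0.29. The counts depend on single libraries and on the filter. With no filter on low sites limma called 0, with 178 of 852 at an unadjusted p below 0.05, while edgeR called 9.66% and DESeq2 12.6% in either direction in place of 8.35%. Without replicate 1, 2 or 3 of the 30 min group 1.31%, 0.327% and 0.164% were called, and without replicate 3 of the 1 h group 19.3%.

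At chr8:123044741-123045060 the 30 min libraries held 84.3, 74.8 and 92 reads and the 1 h libraries 19.4, 15.1 and 13.3. They did not overlap, and the difference was -2.33 ± 0.26 (SE, limma adjusted p = 0.00154). At chr15:97766421-97767030, 73.1, 98.5 and 98.4 reads became 10.9, 8.63 and 24.3, and at chr3:96143661-96144190, 411.3, 775.2 and 754.2 became 132.2, 181.3 and 179.3. The brightest site, chr14:115285561-115287620, went from 9129, 9662 and 8747 to 4948, 6492 and 5647, a difference of -0.70 ± 0.13. Of the 4 sites that were higher at 1 h, chr6:44770011-44770410 had the largest difference, 1.70 ± 0.41, with 14.2, 9.50 and 10.9 reads against 24.9, 30.2 and 79.7. In the chromosome 8 run 6 of 8 sites were lower, and its sum of 2118 ± 57.6 at 30 min compared with 1255 ± 525.3 after 1 h (SD, n = 3 each), the latter spread being that of replicate 3.

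The genes of the same libraries give the setting in which these sites were lost. They are described by the same ratio, without a test, for lists chosen with earlier results of these data known. Of 12008 genes with a DMSO mean of at least 20, 298 (2.48%) had a 1 h ratio of -0.8 or less and 3.60% had one of 0.8 or more. Among 26 transcription factor genes of the blood lineages, 7 were at -0.8 or less and 0 at 0.8 or more, with a median of -0.55. Those were Myb, a regulator of progenitor growth (-1.61), Zfpm1, the GATA1 cofactor (-1.43), Cbfa2t3 (-1.12), Lmo2, a bridging factor (-1.09), Gfi1b, a repressor (-1.04), Lyl1 (-1.03) and Spi1 (-1.01). The gene signal of Myb was 9568 ± 204.9 in DMSO, 3640 ± 279.2 after 30 min and 3140 ± 133.9 after 1 h (SD, n = 3 each). Gata1 was at -0.41.

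Of 24 erythroid and heme genes 1 was at -0.8 or less, Epb42, a membrane skeleton gene (-1.50), and the list's median was -0.35. The median of 9 genes of Myc and its network was 0.41, with 1 gene at -0.8 or less and 1 at 0.8 or more. Myc itself was at -1.36, with 3923 ± 153.6 in DMSO and 1531 ± 98.9 at 30 min, and the Myc antagonist Mxd4 at 1.03. Of 30 genes for acetyltransferases, deacetylases and bromodomain proteins, Kat5 (-1.01), Brd9 (-0.85) and Hdac7 (-0.82) were low, and the deacetylase genes Hdac5 (1.29) and Hdac6 (1.03) were high. Of 10 megakaryocyte genes, whose median was -0.56, 2 were low, Gp1ba (-1.33) and Treml1 (-1.08). Of 20 immediate early genes Dusp2 was low and Fosb and Klf6 were high, and of 8 myeloid genes Prtn3 was high. None of 16 genes of the BCL2 family and the cell cycle brakes passed either limit. Which of these genes the lost sites belong to was not analysed here.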

How the data were processed

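PRO-seq libraries of MEL cells were analysed from 4 site tables and 1 gene table. The deposited values are read counts that the authors divided by DESeq2 size factors, a normalised signal, per the submitters' processing notes, which name Bowtie2 2.2.2, SAMtools 1.16.1, featureCounts 2.0.1, DESeq2 1.46.0, bedtools, HOMER and the builds mm39 and dm3. Size factors hide a change shared by most sites. All values were whole reads (within 0.1) once multiplied by a per-library factor. The members and gene lists were chosen with earlier results of these data known. Tests used limma 3.58.1 (R 4.3.3) on log2(value + 1) over sites with a table mean of at least 10, each table fitted with all its groups, Benjamini-Hochberg adjustment over all sites and a threshold of 0.05. The scripts were tested on simulated data, where the fit of the A485 series, which has 1 shallow library at 1 h, made more false calls than its threshold allows. Values by edgeR and without that library therefore stand beside its 1 h count. Alternatives were edgeR 4.0.16 and DESeq2 1.42.0 on recovered reads, other filters, pseudocounts, scalings and a replicate block, and each library left out.

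Named sites were the 12 most negative by the 1 h ratio, the 8 highest by DMSO signal, the 3 largest differences each way among called sites in A485 1 h, degrader 1 h, degrader 2 h and LBH589 washout, sites next to the rule's limits and the 3 longest runs. The chromosome Y run and the values of these sites in further comparisons were picked after they were seen. Same-numbered libraries did not deviate together: 0 of 58 pairs in the A485 series and 9 of 71 in the time course had a correlation above 0.1. The closest replicate pair differed by a chi-square of 1.54 per site, above sampling noise. No mm39 genome or annotation was used here, so sites carry no gene names.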

Additional observations from a re-analysis of the deposited data

Results flagged for a closer look

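The effect of the degrader at 1 h differed with and without A485 at 18.4% of the lost sites tested, by the limma interaction (the degrader's log2 effect under A485 minus that without it, adjusted p below 0.05). It was lower at 2.12% and higher at 16.3% of the lost sites, against 9.73% and 6.53% of all sites tested. In either direction, 3465 of all 21312 sites tested were called. The interaction rests in part on the shallow A485 1 h library. On simulated data, this fit made more false calls than its threshold allows. Among the sites named in the report, the interaction was 2.25 at chr3:96143661-96144190, 2.41 at chr13:22012951-22015520 and 2.00 at chr1:21413821-21415010, where the degrader alone lowered the signal. It was 0.57 at chr9:78387611-78388910, 1.28 at chr15:74803831-74805340, 0.99 at chr2:166909061-166910630, 0.47 at chr4:132039111-132042080 and 0.58 at chr15:82230201-82232750, all among the 8 brightest. It was 3.15 at chr19:21354581-21355410, 2.24 at chr8:123030141-123030570 and 2.24 at chr13:6938291-6939230, where A485 alone left values at or near 0, so that the fitted size depends on the 1 read added before the log. The exception in sign was chr12:91390121-91390860, at -1.0.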

How the results depend on the processing

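Of the counts over all lost sites, 267 of 309 alternative values lay within 1.5 times the main value and none reversed. The A485 calls were among those that held, with 62.5% to 67.0% of lost sites called at 1 h when 1 library was left out, in place of 67.7%. With a limit of -1, 371 sites met the rule, with reads scaled by library totals 375, and with 1 library left out 838 to 963. For the degrader in the A485 series (main 7.15% at 15 min and 11.1% at 30 min), edgeR gave 12.2% and 18.8%, with deposited size factors 12.3% and 18.5%, DESeq2 12.3% and 17.7%, and leaving out 1 library 3.84% to 6.62% and 6.09% to 10.3%. For both agents against A485 alone (16.7%), edgeR gave 9.80% with either scaling. For 2 h of degrader in the time course (20%), leaving out 1 library gave 11.9% to 18.2%, and leaving out the 3 libraries that stood apart 30.3%. For washout of 30 min (0.0%), 1 h (11.8%) and 2 h (25.6%), leaving out those 3 gave 25.4%, 34.1% and 43.3%, leaving out 1 library gave 0.0% to 10.1%, 0.608% to 1.70% and 10.1% to 20.4%, and DESeq2 gave 0.38% at 30 min. For the LBH589 washout (8.35%), no filter gave 0.0%, DESeq2 12.6% and leaving out 1 library 0.164% to 19.3%. The causes were not tested.

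Replicate numbers did not pair the libraries. A replicate block gave 12.8%, 18.3% and 4.90% for the degrader at 15 min, at 30 min and for both agents against A485. The same smaller set of groups without a replicate block, an alternative chosen after seeing the data, gave 13.6%, 18.9% and 5.17%. What moved these shares from the main ones was not tested. Other shares called in either direction were within 1.5 times the main ones under the replicate block. Depth limits the 97 untested sites of the A485 series and the 241 of the LBH589 washout series.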

Other observations

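The 766 sites that met the opposite rule, a 1 h ratio of 0.8 or more under LBH589, were weaker and wider than the lost sites, with a median DMSO signal of 38.6 reads and a median width of 940 bp. They were chosen on the same values, and their responses elsewhere are given as a description. A485 at 1 h raised 241 of the 760 tested (31.7%) and lowered 119 (15.7%), against 18.9% and 24.0% of all sites tested. After 2 h of degrader washout, 131 of 766 (17.1%) were lower and 16 (2.09%) higher, against 6.13% and 5.64% of all sites. In the LBH589 washout series 67 of 704 (9.52%) were higher and 2 lower at 1 h, against 2.83% and 2.7%. At 2 h of degrader, 71 (9.27%) were higher and 26 (3.39%) lower, against 8.92% and 1.58%.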
